A study of Mus musculus with 7 samples.

Results

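The 39 genes described here encode cytokines and chemokines, some of their receptors, the subunits, regulators and targets of the transcription factor NF-kB, and the complement system without the C1q subunits. They were chosen by gene symbol, with earlier results of these data known. Each of the 39 symbols has a row among the 35976 gene symbols of the deposited count table. RNA-seq was made from the amygdala of male C57BL/6J mice in which neurons had been isolated with a magnetic kit after papain digestion. Of the 7 libraries, 3 came from mice given a virus (AAV) with a guide RNA against Nr2f2 (sgNr2f2), and 4 from mice given a guide against the Rosa locus (sgRosa), which serve as controls. Cas9 was driven by the neuronal hSyn promoter. All groups share the virus, Cas9, over 2 weeks of expression, 7 days of restraint, then fear conditioning on 1 day and extinction training over 3 days, so no library comes from an unstressed or uninjected mouse. The labels do not give age, and do not say whether a library is 1 animal or a pool. P-values therefore measure the spread between libraries, which may in part be technical.

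In the brain, cytokines such as TNF and interleukin-1 are made mainly by activated microglia and other immune cells, and bind receptors on endothelium, glia and neurons. Receptor binding frees NF-kB dimers from their inhibitors, and the dimers then switch on adhesion molecules, chemokines and their own inhibitors. Complement is a cascade of proteases and opsonins that tags cells and synapses for removal, held in check by inhibitors on host cells. Glucocorticoids released in stress are known to restrain many NF-kB target genes.

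Total counts ran from 16497269 to 20928677 in sgNr2f2 and from 6266897 to 19788953 in sgRosa. Levels are CPM, counts divided by library size after scaling with edgeR's TMM factors. The cells were labelled neurons, and all 12 neuronal markers were detected in every library, but their summed level was 442 to 548 CPM in sgNr2f2 and 427 to 1371 CPM in sgRosa. The 12 endothelial markers summed to 4931 to 13072 CPM in sgNr2f2 and 4565 to 9633 CPM in sgRosa, and the 10 oligodendrocyte markers to 165816 to 408057 CPM in sgNr2f2 and 22954 to 346566 CPM in sgRosa. None of 13 marker sums passed a test between the groups (exact permutation test, two-sided, smallest adjusted p = 0.882). The smallest p the design allows is 0.0286 before adjustment. After adjustment over the 13 sums, a single sum with wholly separate groups could not have passed. The test therefore does not show that the sums were equal. Of the sgRosa libraries, replicate 4 stood apart, with the lowest total, 1.47% of counts in Mbp against 10.3 to 25.8% in the other 6 libraries, and a mean correlation with the others of 0.72 against 0.88 to 0.90. The targeted gene, Nr2f2, had 196, 214 and 191 counts in sgNr2f2 and 422, 305, 166 and 96 in sgRosa, a log2 fold change of -0.36 (SE 0.37) that did not pass (edgeR adjusted p = 0.905). In bulk RNA, fewer cells of a type and less RNA per cell cannot be told apart.

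NF-kB sites in the promoters are shown first, because several of these genes are both outputs and regulators of NF-kB. The NF-kB consensus was searched on both strands of RefSeq promoter windows (GRCm38.p6, 250 bases before to 50 after each annotated start). Of the 27 genes of the list with a window, 7 held a match (25.9%), against 2581 of 27025 genes with a window (9.55%). No other motif was searched, overlapping matches on both strands count as 1 site, and a match is a description of letters, not evidence of binding. Capitals mark the match, and each stretch reads 5′ to 3′ on the gene's strand.
Cxcl1, chr5:90891154-90891203, plus strand: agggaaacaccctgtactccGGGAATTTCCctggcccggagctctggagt
Cxcl2, chr5:90903782-90903831, plus strand: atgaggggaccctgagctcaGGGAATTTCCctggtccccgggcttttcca
Nfkb2, chr19:46304678-46304727, plus strand: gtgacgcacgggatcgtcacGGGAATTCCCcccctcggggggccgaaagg
Nfkb2, chr19:46305685-46305734, plus strand: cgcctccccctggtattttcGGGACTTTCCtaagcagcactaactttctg
Tnfaip3, chr10:19015393-19015442, minus strand: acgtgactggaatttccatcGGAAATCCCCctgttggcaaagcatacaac
Il6, chr5:30013050-30013099, plus strand: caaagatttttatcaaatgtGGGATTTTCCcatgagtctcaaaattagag
The neighbouring chemokine genes Cxcl1 and Cxcl2 carried the same 10 letters. Nfkb2 and Tnfaip3 held further matches, and the other genes with a match were Csf1 and Il1r1.

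The pair of complement C4 genes, C4a and C4b, is shown because near-copies can exchange reads. Both lie on chromosome 17, C4b at 34728139 to 34743902 and C4a at 34809092 to 34823460. Their longest GENCODE M21 transcripts matched in 96.1% of 5367 aligned bases, and 35.2% of 50-base windows were identical. The stretch of 90 bases with most differences, 14 in all, away from the transcript ends, is given with the differing bases in capitals.
C4a, transcript bases 2725 to 2814: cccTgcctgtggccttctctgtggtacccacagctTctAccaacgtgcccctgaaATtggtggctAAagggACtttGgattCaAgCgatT
C4b, transcript bases 2731 to 2820: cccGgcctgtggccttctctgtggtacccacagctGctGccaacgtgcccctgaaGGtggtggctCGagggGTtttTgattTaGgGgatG
C1ra and C1rb were closer still, at 98% identity with 48% of 50-base windows identical, so the counts of C1ra are uncertain to that degree. Cd59a and Cd59b matched in 88.8% of aligned bases. Cfb shared 79.5% of its exonic bases with the annotated read-through gene Gm20547, C2 shared 42.8% with it, and Itgam shared 68.7% with Gm49368. On the opposite strand, Nfkb2 shared 6.52% of its exonic bases with Psd and 11.6% with AC114539.1, and Icam1 shared 11.7% with the antisense gene Gm47079. Counts of those genes depend on how the authors' counting assigned such reads, which is not given in the sources used here.

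Messages of the classical inflammatory cytokines were at or near the limit of detection in both groups. Tnf, the founding member of the tumour necrosis factor family, had no count in sgNr2f2, while sgRosa replicate 1 held 3 counts and the other sgRosa libraries 0. Il1b, the main secreted interleukin-1, was found with 3 counts in sgNr2f2 replicate 2, and with 0 in every other library of both groups. These are at most the floor of 3 counts, which was 0.168 to 0.182 CPM in sgNr2f2 and 0.141 to 0.409 CPM in sgRosa and covers counting error only. Il6, a cytokine of the acute phase, had 7, 0 and 0 counts in sgNr2f2 and 0, 7, 0 and 0 in sgRosa. Il1a had 7 counts over all 7 libraries and Ccl2, a monocyte attractant, had 8. The chemokines Ccl3 and Ccl4, whose RefSeq spans overlap on chromosome 11, had 18 and 27 counts over all libraries. No sample carried a strong signal of any of these 7 genes, and the groups overlapped in each.

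Complement receptors were equally sparse. C3ar1 and C5ar1, the receptors of the peptides C3a and C5a, had 25 and 4 counts over all 7 libraries. Itgam, the CD11b chain of complement receptor 3 and a common marker of microglia, had 0, 13 and 1 counts in sgNr2f2 and 1, 5, 6 and 1 in sgRosa. Other microglial messages were present at low levels: 13 of 18 microglia markers were detected in every library, and the list summed to 48.3 to 61.5 CPM in sgNr2f2 and to 34.5 to 72.0 CPM in sgRosa. Of 10 neutrophil and monocyte markers, 5 had no count in any library. In all, 13 of the 39 genes did not pass edgeR's low-count filter, with 3 to 28 counts each over all libraries, and the other 26 had 117 to 56594.

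**Figure D1:**
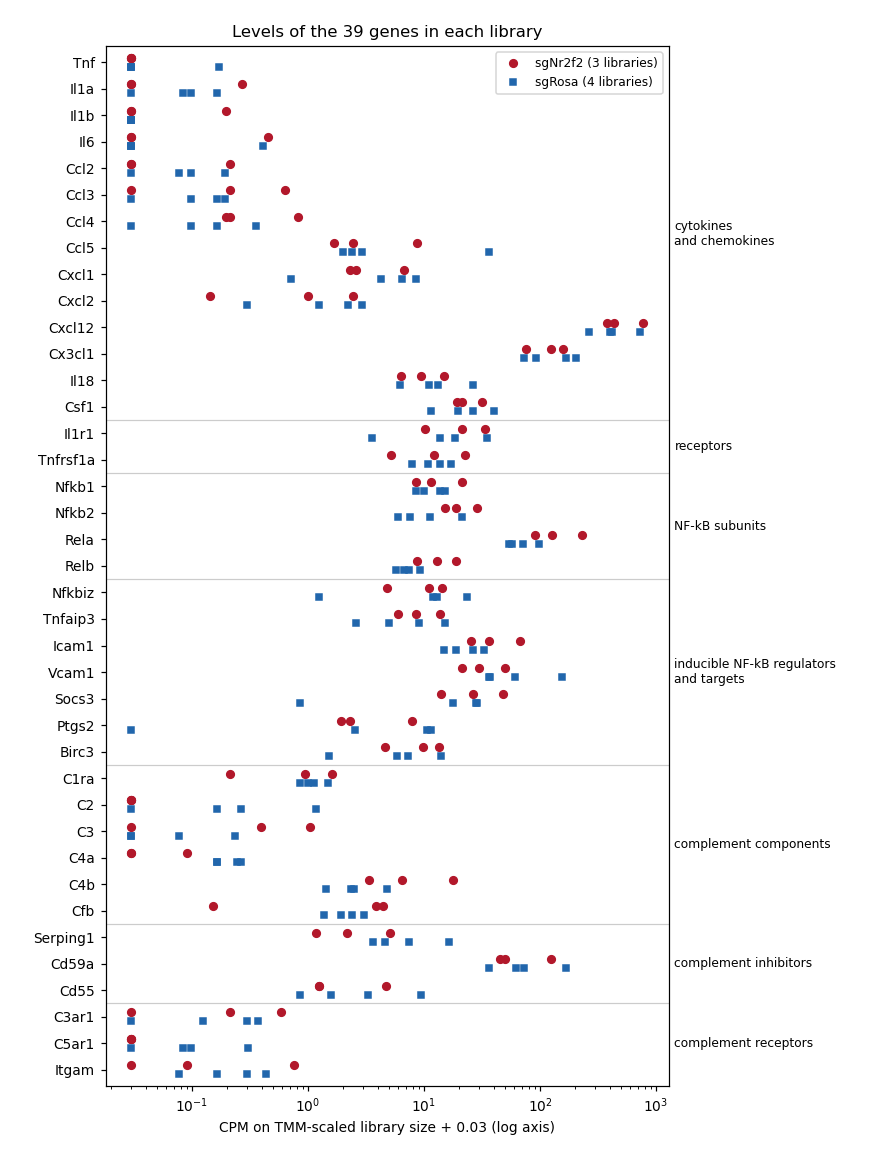
Level of each of the 39 genes in each library, on a log axis of CPM + 0.03, with sgNr2f2 libraries as circles above sgRosa libraries as squares and genes grouped by role. Tnf, Il1b and the complement receptors sit at the left edge, Cxcl12 at 265 to 777 CPM at the right, and in most genes the groups overlap.

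Per kilobase of exon, the leading genes were Cxcl12, Cd59a, Rela and Cx3cl1. Cxcl12, a chemokine that endothelium and stroma make at rest, stood first at 64.8 CPM per kilobase in sgNr2f2 and 55.3 in sgRosa. Cd59a, an inhibitor of the membrane attack complex, lay at 40.4 CPM per kilobase in sgNr2f2 and 46.7 in sgRosa, and Rela at 48.6 in sgNr2f2 and 22.8 in sgRosa. Cx3cl1 (fractalkine), a chemokine of neurons, lay at 30.3 CPM per kilobase in sgNr2f2 and 34.4 in sgRosa. C3, the central protein of complement, lay at 0.089 CPM per kilobase in sgNr2f2, from 24 counts, and at 0.012 in sgRosa, from 4 counts. Most of its sgNr2f2 counts, 18, came from replicate 2.

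Comparing sgNr2f2 with sgRosa asks whether targeting Nr2f2 in amygdala neurons goes with another level of these messages after stress. No gene of the list passed edgeR's quasi-likelihood test: 0 of the 26 kept genes had a Benjamini-Hochberg adjusted p under 0.05, as did 0% of the 14412 genes tested (the smallest was 0.868). Before adjustment, 2 had p under 0.05 and were higher in sgNr2f2, Rela and C4b, against 2.18% of all genes higher, and 0 were lower, against 2.82%. Of the 26, 13 had a positive and 13 a negative log2 fold change, with a median log2 fold change of 0.041, beside -0.11 over all genes, of which 43.8% were higher. None of the 26 had groups that did not overlap, against 4.41% of all genes higher and 3.9% lower. limma-voom also called 0 of the 26. DESeq2 on all 7 libraries gave no p for Ccl5 and called 0 of the other 25, where 0.0499% of genes were called. With sgRosa replicate 4 left out, DESeq2 called Nfkb2 and Rela, 2 of 26, where it called 2.64% of all genes. Without that library edgeR and limma-voom each called 0.

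**Figure D2:**
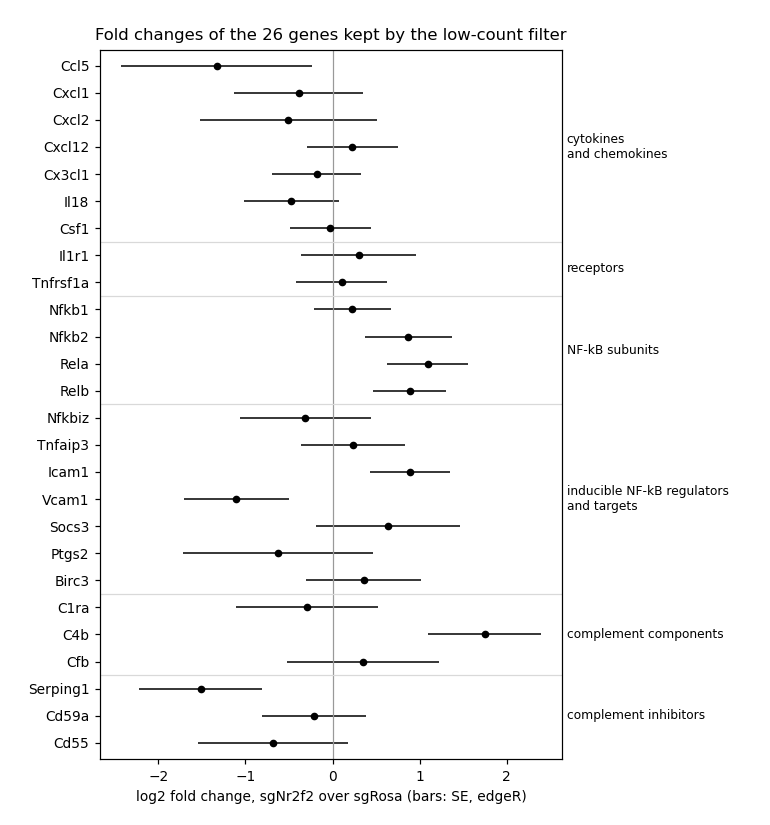
Log2 fold change of sgNr2f2 over sgRosa for the 26 genes that passed the low-count filter, with bars of 1 SE from edgeR, grouped by role. All 4 NF-kB subunits lie right of 0 and all 3 complement inhibitors left of it, and no gene passed the adjusted threshold.

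All 4 NF-kB subunits lay on the higher side in sgNr2f2, also under each other scaling tried, and none passed. Rela, the p65 subunit that carries the activation domain (chromosome 19, 5637442 to 5648134), was at 89.9, 230 and 127 CPM in sgNr2f2 replicates 1 to 3 and at 57.3, 54.3, 70.9 and 97.8 CPM in sgRosa replicates 1 to 4. The lowest sgNr2f2 library lay below sgRosa replicate 4 and above the other 3. Its log2 fold change was 1.09 (SE 0.47, edgeR unadjusted p = 0.0404, edgeR adjusted p = 0.868), and 0.64 without sgNr2f2 replicate 2. Without sgRosa replicate 4 it was 1.29 with edgeR (adjusted p = 0.267) and 1.33 with DESeq2 (adjusted p = 0.0351). Nfkb2, whose p100 product is cut to p52 in the non-canonical pathway (chromosome 19, 46300994 to 46312400), was at 19.0, 28.5 and 15.3 CPM in sgNr2f2 and at 7.59, 6.01, 11.2 and 21.3 CPM in sgRosa. Again sgRosa replicate 4 alone reached into the sgNr2f2 range. The log2 fold change of Nfkb2 was 0.87 (SE 0.50, adjusted p = 0.868), and without that library it was 1.34 with edgeR (adjusted p = 0.248) and 1.38 with DESeq2 (adjusted p = 0.0318). Relb, the partner of p52, was at 13.02, 18.7 and 8.72 CPM in sgNr2f2 and at 9.28, 5.74, 7.48 and 6.68 CPM in sgRosa, where replicate 1 lay above the lowest sgNr2f2 library. Its log2 fold change was 0.88 (SE 0.42, adjusted p = 0.868), and 0.58 without sgNr2f2 replicate 2. Nfkb1, the precursor of p50, averaged 13.8 ± 6.68 CPM in sgNr2f2 and 11.8 ± 3.10 CPM in sgRosa (SD, n = 3 and 4). Its log2 fold change of 0.23 (SE 0.44) turned to -0.23 without sgNr2f2 replicate 2.

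Among the adhesion molecules that NF-kB induces on endothelium, Icam1 and Vcam1 lay on opposite sides. Icam1, a ligand of leukocyte integrins (chromosome 9, 21015940 to 21028814), was at 25.4, 67.4 and 36.4 CPM in sgNr2f2 and at 32.8, 14.9, 18.8 and 26.7 CPM in sgRosa, and the groups overlapped. Its log2 fold change was 0.89 (SE 0.46, adjusted p = 0.868), and 0.41 without sgNr2f2 replicate 2. Vcam1, which holds leukocytes through the integrin VLA-4 (chromosome 3, 116110020 to 116129688), was at 29.7, 49.8 and 21.2 CPM in sgNr2f2 and at 154.6, 60.7, 36.7 and 36.9 CPM in sgRosa. Only sgNr2f2 replicate 2 lay within the sgRosa range, and sgRosa replicate 1 was far above every other library. The log2 fold change of -1.10 (SE 0.61, adjusted p = 0.868) became -0.42 without that library.

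The inducible regulators showed no common direction. Socs3, which blocks cytokine receptor signalling through JAK kinases, was at 48.0, 26.4 and 13.9 CPM in sgNr2f2 and at 28.0, 28.8, 17.9 and 0.818 CPM in sgRosa, with the lowest level in sgRosa replicate 4 and the highest in sgNr2f2 replicate 1. Its log2 fold change was 0.64 (SE 0.83, adjusted p = 0.925), 0.24 without sgRosa replicate 4 and 0.095 without sgNr2f2 replicate 1. Ptgs2, the inducible cyclooxygenase COX-2, was at 7.81, 1.91 and 2.30 CPM in sgNr2f2 and at 11.4, 10.6, 2.52 and 0 CPM in sgRosa. Both groups held high and low libraries (log2 fold change -0.63, SE 1.09, adjusted p = 0.947). It was -1.56 with sgNr2f2 replicate 1 left out and -0.15 with sgRosa replicate 1 left out. Tnfaip3 (A20), which removes ubiquitin chains from NF-kB signalling complexes, averaged 9.38 ± 3.90 CPM in sgNr2f2 and 7.92 ± 5.45 CPM in sgRosa. Birc3 (cIAP2), a ubiquitin ligase of TNF receptor complexes, averaged 9.23 ± 4.39 CPM in sgNr2f2 and 7.14 ± 5.17 CPM in sgRosa, and Nfkbiz (IkB-zeta), a nuclear cofactor of NF-kB, 10.1 ± 4.87 CPM in sgNr2f2 and 12.5 ± 9.19 CPM in sgRosa. In Tnfaip3, Birc3 and Nfkbiz the difference was smaller than the SD of either group, and sgRosa replicate 4 was the lowest of the 7 libraries in each, at 2.59, 1.499 and 1.23 CPM.

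Of the cytokines and chemokines that could be tested, 1 of 7 was on the higher side, and 4 of 7 were without sgRosa replicate 4. The one with all libraries was Cxcl12 (chromosome 6, 117168535 to 117181368), with 380, 777 and 433 CPM in sgNr2f2 and 723, 265, 402 and 420 CPM in sgRosa (log2 fold change 0.23, SE 0.53, adjusted p = 0.957). It was -0.15 without sgNr2f2 replicate 2 and -0.031 with library size alone as scaling. Cx3cl1 was at 75.3, 124 and 157 CPM in sgNr2f2 and at 169, 72.5, 93.4 and 205 CPM in sgRosa, with fully overlapping groups (log2 fold change -0.18, SE 0.51, and 0.088 without sgRosa replicate 4). Its sgRosa libraries of highest level, replicates 1 and 4, were also those of highest summed neuronal markers, at 759 and 1371 CPM. In sgNr2f2 the neuronal sums were 548, 442 and 538 CPM, and replicate 1, with the highest sum, had the least Cx3cl1. The part of neurons in the level of Cx3cl1 was not tested. The receptor of Cx3cl1, Cx3cr1 of microglia, had 1 count in each sgNr2f2 library and 33, 53, 22 and 0 counts in sgRosa, a ratio of sgNr2f2 to sgRosa of 0.0338 (95% exact conditional interval 0.00686 to 0.101, counting error only). It did not pass edgeR's test (adjusted p = 0.868), and sgRosa replicate 4 had less than any sgNr2f2 library. The microglia marker sums of the groups, given above, overlapped.

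Ccl5, an attractant of T cells, was set by 1 library. It was at 2.42, 8.75 and 1.63 CPM in sgNr2f2 and at 2.91, 2.38, 1.97 and 36.4 CPM in sgRosa. The log2 fold change was -1.33 (SE 1.10, adjusted p = 0.890) with all libraries and 0.81 without sgRosa replicate 4. The 6 lymphocyte markers summed to 2.91, 14.2 and 5.75 CPM in sgNr2f2 and to 3.61, 5.20, 1.70 and 33.9 CPM in sgRosa. So the libraries with most Ccl5, sgRosa replicate 4 and sgNr2f2 replicate 2, were also those with most lymphocyte messages. Nkg7, a gene of cytotoxic lymphocytes, alone gave 20.03 and 8.41 CPM there, and Ms4a1, a B cell marker, was at 0 in 5 of the 7 libraries. The part of lymphocytes in the level of Ccl5 was not tested.

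The remaining cytokines differed by less than the spread of their libraries. Il18, an interleukin-1 family member that caspase-1 activates, was at 14.8, 6.28 and 9.38 CPM in sgNr2f2 and at 6.19, 13.1, 10.95 and 26.3 CPM in sgRosa. Its log2 fold change of -0.47 (SE 0.54, adjusted p = 0.915) was 0.0095 without sgRosa replicate 4. Csf1, the growth factor that maintains microglia, averaged 24.1 ± 6.74 CPM in sgNr2f2 and 24.4 ± 11.99 CPM in sgRosa. Cxcl1 and Cxcl2, neutrophil attractants, share the promoter match printed above. Cxcl1 averaged 3.85 ± 2.44 CPM in sgNr2f2 and 4.99 ± 3.38 CPM in sgRosa, and Cxcl2 1.17 ± 1.17 CPM in sgNr2f2 and 1.66 ± 1.16 CPM in sgRosa. sgRosa replicate 4 had the lowest Cxcl1 of all libraries, 0.681 CPM. Il1r1, the signalling receptor of interleukin-1, averaged 21.8 ± 11.7 CPM in sgNr2f2 and 17.7 ± 12.98 CPM in sgRosa, and Tnfrsf1a, the main TNF receptor, 13.3 ± 8.78 CPM in sgNr2f2 and 12.4 ± 3.89 CPM in sgRosa. For both receptors the groups overlapped.

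C4b, which is cleaved in the classical and lectin pathways to start the C3 convertase, had the smallest p of the list. It was at 6.48, 3.36 and 17.9 CPM in sgNr2f2 (107, 60 and 296 counts) and at 1.41, 4.82, 2.31 and 2.45 CPM in sgRosa (30, 89, 34 and 18 counts). sgNr2f2 replicate 2 lay below sgRosa replicate 2, so the groups overlapped. The log2 fold change was 1.75 (SE 0.65, edgeR unadjusted p = 0.0221, edgeR adjusted p = 0.868), and 0.86 without sgNr2f2 replicate 3. Its near-copy C4a had 1, 0 and 0 counts in sgNr2f2 and 5, 4, 2 and 1 in sgRosa, the only gene of the 39 whose CPM did not overlap between the groups. Its counts are near the floor, and sgNr2f2 replicate 1 and sgRosa replicate 4 each held 1 count, so their CPM differed by library size alone. Among all 24326 genes with a count, 3.56% lay wholly lower. From 1 count against 12, the ratio of sgNr2f2 to sgRosa was 0.101 (95% interval 0.00237 to 0.685), and how reads of the shared stretches were assigned to each copy is not known.

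The proteases that act beside C4 were low. C2 had 0 counts in sgNr2f2 and 5, 21, 2 and 0 in sgRosa. With reads pooled by group and 3 counts over the whole group taken as the floor, sgNr2f2 was at least 7.68-fold below the sgRosa estimate. The bound was 2.74-fold when sgRosa replicate 2 was left out. It covers counting error of the sgNr2f2 reads only. Counting error of the sgRosa reads, which would lower it, and the spread between libraries are not covered. With 0 counts in sgRosa replicate 4 as well, the groups overlapped, and C2 was not in the main fit. Cfb, the C2 counterpart of the alternative pathway and its neighbour on chromosome 17, was at 0.121, 4.37 and 3.81 CPM in sgNr2f2 and 1.36 to 3.00 CPM in sgRosa. C1ra, a protease of the C1 complex, was at 0.182, 1.57 and 0.908 CPM in sgNr2f2 and 0.818 to 1.45 CPM in sgRosa. In both, sgNr2f2 replicate 1 was the lowest library and replicate 2 the highest.

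All 3 complement inhibitors were on the lower side in sgNr2f2, also under each other scaling tried, and none passed. Serping1, the C1 inhibitor, was at 5.09, 2.13 and 1.15 CPM in sgNr2f2 and at 4.55, 16.4, 3.61 and 7.36 CPM in sgRosa. The highest sgNr2f2 library lay above sgRosa replicates 1 and 3. The log2 fold change of -1.52 (SE 0.70, adjusted p = 0.868) was -0.87 without sgRosa replicate 2. That library also had the highest sum of meningeal fibroblast markers, 61.7 CPM, against 7.08 to 14.6 CPM in the other sgRosa libraries and 3.48 to 25.4 CPM in sgNr2f2. Of those 7 markers, 2 were detected in every library. It was also highest in the choroid plexus and ependyma (913 CPM), pericyte and smooth muscle (415 CPM), astrocyte, microglia and border macrophage sums. sgRosa replicate 4, second in Serping1, had a fibroblast sum of 8.04 CPM. The part of any of these cells in Serping1 was not tested. Cd55, which speeds the decay of C3 convertases, was at 1.21, 4.65 and 1.21 CPM in sgNr2f2 and at 3.28, 9.37, 1.56 and 0.818 CPM in sgRosa (log2 fold change -0.68, SE 0.86), and it was 0.31 without sgRosa replicate 2. Cd59a averaged 73.1 ± 44.3 CPM in sgNr2f2 and 84.6 ± 56.7 CPM in sgRosa. Its highest library was sgRosa replicate 4 at 167 CPM, and the log2 fold change was -0.21 with it and 0.35 without it, and 0.045 and 0.017 without sgNr2f2 replicate 1 or 3.

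Levels were also set beside the endothelial marker sum, which was 4931, 13072 and 7067 CPM in sgNr2f2 and 9633, 4565, 6487 and 5293 CPM in sgRosa. Cxcl12 ranged 2.94-fold over the 7 libraries as CPM. As a percent of the endothelial sum it was 7.70, 5.95 and 6.13 in sgNr2f2 and 7.50, 5.80, 6.20 and 7.93 in sgRosa, a range of 1.37-fold. Between log2 CPM of Cxcl12 and log2 of the endothelial sum, Pearson's r was 0.94 (exact permutation p = 9.921e-04) and Spearman's rho 0.96 (exact permutation p = 0.00278). Neither passed after adjustment over all 14412 genes, each set beside the same sum (adjusted p = 0.433 for r and 0.707 for rho), and 0% of genes did. With 5040 permutations, the smallest exact permutation p of r over all genes was 1.98e-04. A single gene could therefore not have passed this adjustment. An r at least as high as that of Cxcl12 was found in 47 genes (0.326%). Without the libraries farthest from the median sum, sgNr2f2 replicate 2 and sgRosa replicate 1, r of Cxcl12 was 0.72 over 5 libraries. For Nfkb1, r was 0.94 (exact permutation p = 0.00317, adjusted p = 0.472) and rho 0.82 (exact permutation p = 0.0341, adjusted p = 0.707), with r at 0.73 without those libraries. Before adjustment, 4 of the 26 had a positive r with an exact permutation p under 0.05, against 3.59% of all genes, and 4 had such a rho, against 3.62%. Il18 went the other way, with r at -0.82 (exact permutation p = 0.0222) and rho at -0.82 (exact permutation p = 0.0341). Serping1 did so by rho, at -0.79 (exact permutation p = 0.0480), with r at -0.62 (exact permutation p = 0.137). Neither passed after adjustment. The median r was 0.41 over the 26 and 0.021 over all genes. The groups hold too few libraries for a value within each, and the points share their library scaling.

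Icam1 per endothelial sum was 0.516, 0.515 and 0.516% in sgNr2f2 and 0.340, 0.327, 0.289 and 0.505% in sgRosa, a comparison chosen after the values were seen. On this scale, with the 12 markers used, the sgNr2f2 libraries were nearly equal and sgRosa replicate 4 was close to them. The marker Slc2a1 alone was at 1507, 4928 and 3154 CPM in sgNr2f2 and at 1696, 1155, 1807 and 790 CPM in sgRosa. In sgRosa replicate 4, Ly6c1 and Cldn5 were the highest of all libraries, at 1756 and 896 CPM. Pecam1 and Cdh5 were the lowest there, at 42.9 and 18.3 CPM. Values per endothelial sum thus depend on the markers chosen, and other choices were not tried. Vcam1 was 0.603, 0.381 and 0.301% of the endothelial sum in sgNr2f2 and 1.60, 1.33, 0.566 and 0.698% in sgRosa, highest in sgRosa replicates 1 and 2. On the log2 scale, 16 of the 26 genes (61.5%) had a smaller SD over libraries per endothelial sum than as CPM. Among all 14412 genes the share was 24.1%. With the endothelial sum as a covariate, edgeR gave log2 fold changes of 0.81 for Rela, 0.53 for Icam1, -1.29 for Vcam1, 2.18 for C4b, -0.040 for Cxcl12 and -0.11 for Nfkb1, 0 of 26 passed, and 7 of 26 were on the higher side.

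**Figure D3:**
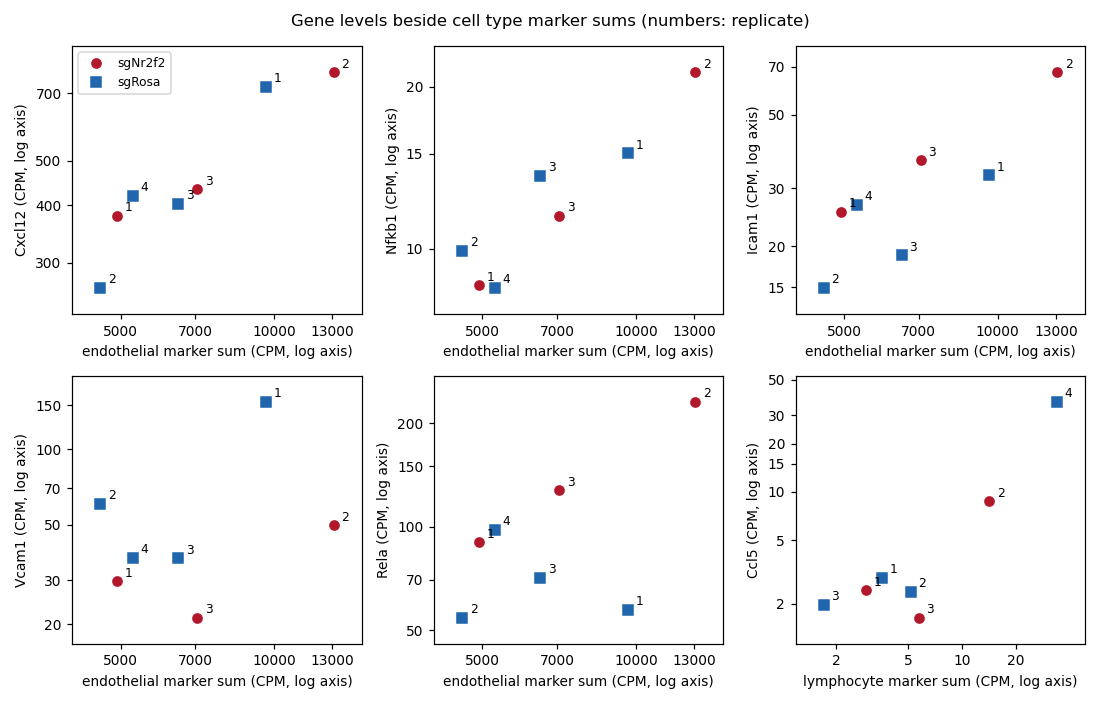
CPM of Cxcl12, Nfkb1, Icam1, Vcam1 and Rela against the endothelial marker sum, and of Ccl5 against the lymphocyte marker sum, on log axes, with 1 point per library (circles sgNr2f2, squares sgRosa, numbers giving the replicate). Pearson's r with the endothelial sum was 0.94 for Cxcl12 and for Nfkb1, neither past the threshold after adjustment over all genes, and Ccl5 is highest in sgRosa replicate 4 and sgNr2f2 replicate 2.

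Other genes of these pathways were read from lists written beside the 39. All of these lists, also those for complement and tissue dissociation below, were written with earlier results of these data known. Shares over them are therefore not independent support. Of 37 NF-kB target and feedback genes, 30 were kept, 18 were higher in sgNr2f2 and 12 lower, with a median log2 fold change of 0.27, and 0 passed. In 5 of the 30 every sgNr2f2 library lay above every sgRosa library, against 4.41% of all genes, and in 0 below. The 5 were Bcl2l1, Zc3h12a, Cflar, Stat3 and Tnip2, the last 3 named after their values were seen. Bcl2l1, the survival gene BCL-XL, was at 1524, 1790 and 974 CPM in sgNr2f2 and at 379, 389, 500 and 384 CPM in sgRosa (log2 fold change 1.79, SE 0.48, adjusted p = 0.868). Every sgNr2f2 library lay above every sgRosa library. Zc3h12a (Regnase-1), an RNase that degrades cytokine messages, averaged 9.02 ± 3.36 CPM in sgNr2f2 and 3.418 ± 1.30 CPM in sgRosa. Bcl3, a nuclear IkB family member, averaged 13.7 ± 6.36 CPM in sgNr2f2 and 4.11 ± 3.00 CPM in sgRosa, and Cebpb, a transcription factor of acute phase genes, 15.4 ± 10.2 CPM in sgNr2f2 and 3.71 ± 2.52 CPM in sgRosa, and both groups overlapped.

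Of 51 genes of NF-kB signalling and sensing, 43 were kept, with 28 higher in sgNr2f2, 15 lower, a median of 0.13 and 0 past the threshold. Irak2, a kinase of Toll-like receptor signalling, was at 79.8, 143 and 63.1 CPM in sgNr2f2 and at 39.5, 25.2, 48.0 and 6.00 CPM in sgRosa (log2 fold change 1.68, SE 0.63). Nod2, a sensor of bacterial peptides, averaged 9.11 ± 4.80 CPM in sgNr2f2 and 2.36 ± 1.11 CPM in sgRosa, and Ticam1 (TRIF), an adaptor of Toll-like receptors, 7.19 ± 3.19 CPM in sgNr2f2 and 2.97 ± 0.404 CPM in sgRosa. Irak2, Nod2 and Ticam1 were the 3 of the 43 that lay wholly higher in sgNr2f2, against 4.41% of all genes, and 0 lay wholly lower. Ly96 (MD-2), the partner of the endotoxin receptor, lay on the other side at 0.177 ± 0.00778 CPM in sgNr2f2 and 2.07 ± 1.74 CPM in sgRosa, with sgRosa replicate 4 at 0.136 CPM.

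Receptors of cytokines and chemokines were split, with 15 of 31 kept genes higher and 16 lower, of 46 listed, and a median log2 fold change of -0.020. Tnfrsf12a, the receptor of the cytokine TWEAK, was at 66.6, 204 and 117 CPM in sgNr2f2 and at 24.7, 25.5, 60.5 and 31.2 CPM in sgRosa (log2 fold change 1.86, SE 0.52, adjusted p = 0.868). Il4ra averaged 16.9 ± 6.13 CPM in sgNr2f2 and 6.05 ± 3.37 CPM in sgRosa and Tnfrsf10b, a death receptor, 6.52 ± 1.30 CPM in sgNr2f2 and 3.06 ± 1.53 CPM in sgRosa. Tnfrsf12a, Il4ra and Tnfrsf10b were the 3 of the 31 that lay wholly higher in sgNr2f2, against 4.41% of all genes, and 0 lay wholly lower. Of 50 other cytokines, 19 were kept, 8 higher and 11 lower (median -0.28). Tgfb2 was at 15.6, 26.9 and 12.6 CPM in sgNr2f2 and at 114, 47.9, 50.1 and 33.4 CPM in sgRosa (log2 fold change -1.74, SE 0.54), the only one of the 19 whose groups did not overlap, against 3.9% of all genes wholly lower. Tgfb1 averaged 4.91 ± 1.80 CPM in sgNr2f2 and 1.86 ± 1.68 CPM in sgRosa, Il34, the other ligand of the microglial receptor Csf1r, 3.92 ± 0.959 CPM in sgNr2f2 and 8.42 ± 7.02 CPM in sgRosa, and Tnfsf10 (TRAIL) 4.66 ± 1.87 CPM in sgNr2f2 and 15.8 ± 17.3 CPM in sgRosa, with overlap in each.

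**Figure D4:**
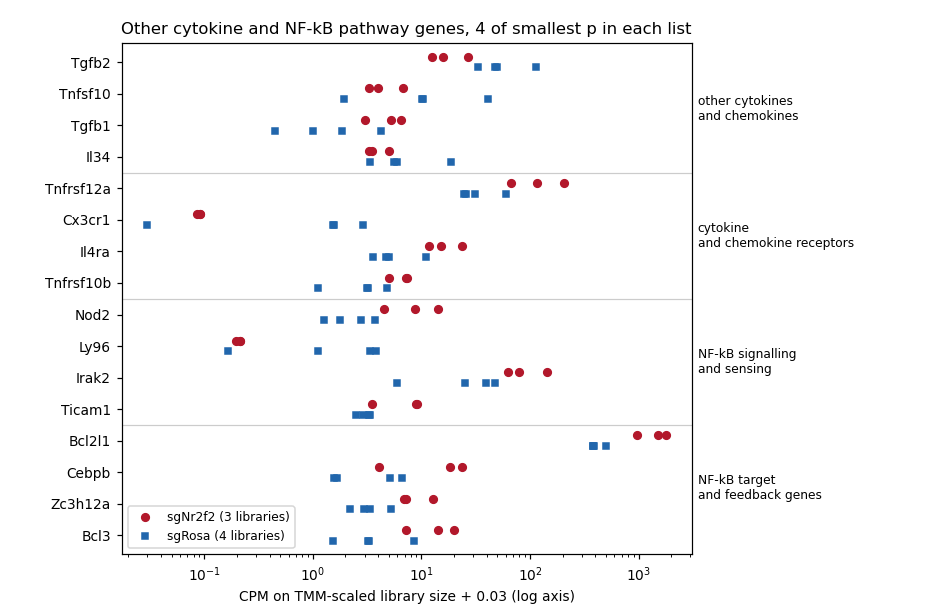
Levels of 16 other cytokine and NF-kB pathway genes in each library, the 4 of smallest edgeR p from each of 4 lists, on a log axis of CPM + 0.03, with sgNr2f2 as circles above sgRosa as squares. Bcl2l1 sits at 974 to 1790 CPM in sgNr2f2 and at 379 to 500 CPM in sgRosa, and no gene shown passed the adjusted threshold.

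Of 40 other complement genes, 23 were kept, 7 were higher and 16 lower, the median log2 fold change was -0.67, and 0 passed. In 2 of the 23 the groups did not overlap on the lower side, against 3.9% of all genes. These were Csmd3 and C1qbp, named after their values were seen. The genes of smallest p, whose groups all overlapped, were Csmd2 at 2.91 ± 0.209 CPM in sgNr2f2 and 8.96 ± 5.82 CPM in sgRosa and Csmd1 at 1.54 ± 0.415 CPM in sgNr2f2 and 5.58 ± 3.99 CPM in sgRosa, members of a family with complement-regulating domains, and Vtn (vitronectin), which pericytes also express, at 11.96 ± 8.37 CPM in sgNr2f2 and 39.2 ± 23.1 CPM in sgRosa. Clu (clusterin), an inhibitor of the membrane attack complex, was at 109 to 159 CPM in sgNr2f2 and at 120, 250, 161 and 1346 CPM in sgRosa. sgRosa replicate 4 was the highest library for Csmd1, Csmd2, Vtn and Clu, at 10.6, 17.03, 63.8 and 1346 CPM.

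Genes that tissue dissociation is known to induce were set beside these, since microglial and endothelial NF-kB genes respond to the same handling. This list is not separate from that of NF-kB target and feedback genes: Ier3, Zfp36, Gadd45b and Junb stand in both. Of 24 listed, 22 were kept, with 6 higher and 16 lower in sgNr2f2 (median log2 fold change -0.49) and 0 past the threshold. Fos was at 165, 98.1 and 60.7 CPM in sgNr2f2 and at 667, 233, 133 and 425 CPM in sgRosa, and Egr1 averaged 51.9 ± 19.8 CPM in sgNr2f2 and 249 ± 287 CPM in sgRosa. Atf3 averaged 103 ± 50.8 CPM in sgNr2f2 and 263 ± 86.2 CPM in sgRosa. It was the 1 gene of the 22 that lay wholly lower in sgNr2f2, against 3.9% of all genes, and 0 lay wholly higher. Ier3 averaged 15.7 ± 5.98 CPM in sgNr2f2 and 38.0 ± 35.7 CPM in sgRosa. The part of handling in the levels of the 39 genes was not tested.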

How the data were processed

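RNA-seq of 7 libraries (3 sgNr2f2, 4 sgRosa) was used. The deposited values are whole-number counts for each gene symbol, not normalized by the authors. Tools named in the submitters' processing notes are featureCounts 2.0.1, STAR 2.7.5c and fastp 0.23.2, with mm10 as build. For the annotation, the strand setting and reads with several matches, the handling is not given in the sources used.

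From these counts, edgeR 4.0.16 (R 4.3.3) was fitted on all 7 libraries with TMM factors, its low-count filter, which left 14412 genes, and no term but the group. Adjustment of the quasi-likelihood p-values (Benjamini-Hochberg) ran over all of these genes, at a threshold of 0.05. Correlations used log2 CPM with a prior count of 2. DESeq2 1.42.0 and limma-voom (limma 3.58.1) were alternatives, and the endothelial covariate was added after the data were seen. Exonic lengths came from GENCODE M21 and coordinates from RefSeq GRCm38.p6, which matched all 39 symbols.

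The 39 genes and all lists were chosen with earlier results of these data known. Of the 39 genes, values in every library are given for those whose groups do not overlap, the 12 of smallest p, C4a and C4b, and for further genes such as Cxcl12 and Cx3cl1. From each other list the 4 genes of smallest p are named, some by mean and SD only. The edgeR fit was tested on simulated counts in which 200 genes were changed. At the adjusted threshold it called 0% of the 2-fold, 10.9% of the 4-fold and 56.9% of the 8-fold changes. It also called 4 unchanged genes. A gene that did not pass may therefore still differ between the groups. PCR reads without molecular identifiers are not independent molecules, so intervals and floors cover counting error only.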

Additional observations from a re-analysis of the deposited data

Results flagged for a closer look

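In sgRosa, with 4 libraries, 5 of 40 measures had 1 library far from the rest. The cut-off flags about 1 in 20 by chance only for independent, normally distributed values. CPM values and marker sums need not be so, and all flags came from replicates 2 and 4. The count of flags therefore does not show an excess over chance. The groups of 3 sgNr2f2 libraries were too small for this check. Ccl5 lay at 36.4 CPM in sgRosa replicate 4, against 1.97 to 2.91 CPM in replicates 1 to 3. The lymphocyte marker sum of the same library was 33.9 CPM, against 1.70 to 5.20 CPM, and its erythroid marker sum was 31591 CPM, against 1049 to 3063 CPM. In sgRosa replicate 2 the meningeal fibroblast marker sum was 61.7 CPM, against 7.08 to 14.6 CPM in the other sgRosa libraries. Its sum of choroid plexus and ependyma markers was 912.9 CPM, against 9.28 to 62.3 CPM.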

How the results depend on the processing

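Of 18 alternative settings, the count of genes past the adjusted threshold differed from 0 under DESeq2, with 7 of all genes, and under DESeq2 with sgRosa replicate 4 left out, with 372 of all genes and 2 of the 39 (Nfkb2 and Rela). The median log2 fold change of the kept genes ran from -0.22 with the endothelial covariate to 0.30 without sgRosa replicate 1, within the spread of 0.45 between libraries. Among the 12 kept genes of smallest p, the sign turned for Ccl5, Il18, Cd55 and Socs3. Ccl5 was 0.031 with limma-voom quality weights and 0.46 with the replicate block. Under that block sgRosa replicate 4 has no same-numbered sgNr2f2 library and adds nothing to the group difference. With sgRosa replicate 4 left out Ccl5 was 0.86 by DESeq2 and 0.44 by limma-voom. Over the fits without 1 library each it ran from -2.40 to 0.81. With that library left out Il18 was 0.033 by DESeq2 and 0.0069 by limma-voom, and it ran from -0.85 to 0.0095 over the fits without 1 library. Cd55 ran from -1.64 to 0.31, and Socs3 was -0.039 with quality weights. The cause was not tested. Same-numbered libraries did not deviate together (r = -0.20, -0.26 and 0.090), so the numbers were not taken as pairs, and the replicate block called 0 genes. Library size alone as scaling moved the median of all genes from -0.11 to -0.33 and the kept genes on the higher side from 13 to 10 of 26. The 13 genes below the low-count filter are limited by depth and were not in the main fit. Ratios given for them cover counting error only, and the bound for C2 covers it for the sgNr2f2 reads alone.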
